A study of Mus musculus with 24 samples.

Results

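The 8 genes described here encode proteases of the pericellular space and their partners: the plasminogen activators Plat and Plau, the receptor Plaur, the inhibitor Serpine2, and the aggrecanases Adamts1, Adamts4, Adamts5 and Adamts9. They were chosen by symbol, with earlier results of these data known, so their shares beside those of all genes are a description. All 8 were among the 15221 genes tested, of 27088 genes with a read and 45706 entries that name a gene. RNA was sequenced from mouse embryonic fibroblasts (MEFs), primary connective tissue cells grown from embryos, in 24 libraries, 3 in each of 8 groups. All groups came from male C57BL/6 embryos of day 13.5, freed of head and most inner organs, and from cells cultured for 7 days. Mutant cells carried the glucocorticoid receptor (GR) allele GR Zn/Zn, and wild-type cells carried GR wt/wt. In each genotype 1 group received dexamethasone (Dex, a synthetic glucocorticoid) at 1 uM for 16 h and lipopolysaccharide (LPS, a bacterial cell wall component) at 100 ng/ul for 6 h. The other groups received ethanol and LPS, Dex alone, or ethanol alone, which is the vehicle. By its title, the study concerned the GR functions that depend on direct contact with DNA. Whether replicates came from different embryos or dishes is not stated, so a p-value reflects the spread among these libraries alone, and that spread may be technical. Genotype and the embryos or cultures that carried it cannot be told apart.

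Tissue-type plasminogen activator (Plat) and urokinase (Plau) are secreted serine proteases that cut plasminogen to plasmin, which digests fibrin and activates other proteases. Urokinase works at the cell surface, bound to its receptor Plaur, and Serpine2 (protease nexin-1) inhibits both activators as well as thrombin. ADAMTS proteases are secreted zinc metalloproteases with thrombospondin repeats, and those described here cleave the proteoglycans aggrecan and versican in cartilage and soft connective tissue.

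The 5' flanks of a pair of members are shown because these genes had contrasting responses to the 2 treatments: in wild-type cells Adamts1 rose with Dex and fell with LPS, and Plaur did the opposite. The RefSeq promoter table (build GRCm38.p6, 250 bases before to 50 bases after the gene start) held 4 of the 8 members. The Adamts1 window is chr16:85803064-85803363 on the minus strand, and its capitals mark a TATA box (TATAAA) from base -32 to -27 and 3 GC boxes (GGGCGG). The Plaur window is chr7:24462233-24462532 on the plus strand, and its capitals mark 1 AP-1 motif (TGANTCA) from base -69 to -63 and a run of 3 GC boxes, of which the last 2 share 1 base.
Adamts1: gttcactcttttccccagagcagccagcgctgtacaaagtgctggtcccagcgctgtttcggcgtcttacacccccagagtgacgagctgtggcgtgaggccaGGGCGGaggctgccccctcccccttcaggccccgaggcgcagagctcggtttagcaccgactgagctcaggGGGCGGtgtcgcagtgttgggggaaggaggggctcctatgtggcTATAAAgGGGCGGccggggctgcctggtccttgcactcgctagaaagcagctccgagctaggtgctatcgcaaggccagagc
Plaur: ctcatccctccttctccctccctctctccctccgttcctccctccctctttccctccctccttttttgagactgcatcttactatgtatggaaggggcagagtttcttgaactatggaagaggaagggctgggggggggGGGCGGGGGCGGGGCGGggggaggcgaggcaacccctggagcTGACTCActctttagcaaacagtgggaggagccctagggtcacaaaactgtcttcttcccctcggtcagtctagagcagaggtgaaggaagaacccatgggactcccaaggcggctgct
The Serpine2 window, chr1:79858616-79858915, held 6 GC boxes, and the Adamts9 window held 1, on the other strand. The Serpine2 window follows the RefSeq start, which lies inside the gene span given below and not at its 5' end. Over 32851 promoters of this length, 7.81% held the AP-1 motif, 13.6% the TATA box and 35.7% the GC box on either strand. The short GR motif AGAACA, found in 19% of all promoters, the full palindromic GR site, found in 0.00913%, the CRE TGACGTCA, found in 1.79%, and the NF-kB motif, found in 4.51%, were in none of the 4 windows. These are letter matches in a short window and not binding data.

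Gene positions are from GENCODE vM21 on GRCm38. Plat (ENSMUSG00000031538) lies at chr8:22757727-22782844 on the plus strand, Plau (ENSMUSG00000021822) at chr14:20836660-20843385 on the plus strand and Plaur (ENSMUSG00000046223) at chr7:24462484-24475968 on the plus strand. Serpine2 (ENSMUSG00000026249) lies at chr1:79794197-79861180 on the minus strand and Adamts4 (ENSMUSG00000006403) at chr1:171250421-171260637 on the plus strand. Adamts1 (ENSMUSG00000022893) at chr16:85793827-85803113 and Adamts5 (ENSMUSG00000022894) at chr16:85856173-85901828 are neighbours on the minus strand of chromosome 16. Adamts9 (ENSMUSG00000030022) lies at chr6:92772699-92943492 on the minus strand. Adamts9 overlaps 3 weakly expressed genes on the opposite strand. Reads were counted by strand, and 2.7 to 2.91% of stranded reads fell on the other strand.

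Libraries held 18.9 to 25.5 M counted reads in 21 cases and 43.9 to 58 M in 3 others, which carry later library numbers: the wild-type Dex with LPS replicate 3, the mutant vehicle replicate 1 and the mutant LPS replicate 2. Together with the wild-type Dex with LPS replicate 1 and the mutant Dex with LPS replicate 2 they are named here as the 5 libraries that stood apart. Replicate pairs with one of these 5 differed by 8.7 to 61.1 times the sampling variance, and the other 15 pairs by 1.56 to 5.05 times. In the wild-type Dex with LPS group all pairs were wide: 24.1 for replicates 1 and 2, 61.1 for 1 and 3, and 20.6 for 2 and 3. There the measure does not show which replicates stand apart. It also grows with depth, which was higher in 3 of the 5. Because the 5 were chosen by this measure, leaving them out lowers the spread by selection. It also keeps only replicate 2 of the wild-type Dex with LPS group, so only effect sizes are given for that setting. As a check of the treatments, the Dex-induced gene Fkbp5 had 44 ± 2.38 CPM with Dex and 44.8 ± 0.807 CPM with vehicle in mutant cells, and 307 ± 13.2 CPM with Dex and 41.3 ± 1.4 CPM with vehicle in wild-type cells (SD, n = 3 each). The chemokine gene Cxcl1 had 356 ± 2.1 CPM with LPS and 5.91 ± 0.175 CPM with vehicle in mutant cells, against 307 ± 12 and 1.57 ± 0.227 CPM in wild-type cells. Fibroblast markers summed to 19265 to 29924 CPM over 10 genes, led by Col1a1 at a median of 8438 CPM. Levels within the list were uneven, with S100a4 at a median of 12.2 CPM and Dpt at 3.99 CPM. The 10 endothelial markers summed to 10.2 to 16.7 CPM in mutant and 24.3 to 40 CPM in wild-type libraries, led by Kdr at a median of 8.77 CPM, with Tie1 and Cldn5 at a median of 0 CPM. In bulk RNA, fewer cells of a type and less RNA per cell cannot be told apart.

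Levels are counts per 1e+06 counted reads (CPM), scaled with edgeR's TMM factors, and replicates are given in the order 1, 2 and 3. All 8 genes were expressed in all 24 libraries, between 16.4 CPM for Adamts4 and 420 CPM for Adamts1, both with Dex in wild-type cells. Per kb of exon, Plau was the most abundant member in vehicle, at 35.9 ± 1.17 CPM per kb in mutant cells and 53.1 ± 0.386 CPM per kb in wild-type cells (SD, n = 3 each). Adamts1 followed, at 33.9 ± 0.298 in mutant cells and 30.8 ± 0.702 CPM per kb in wild-type cells. Adamts9 was the least abundant, at 2.29 ± 0.211 CPM per kb in mutant cells and 1.28 ± 0.0679 in wild-type cells. With Dex in wild-type cells the order changed, and Adamts1 led at 77.8 ± 1.35 CPM per kb, ahead of Plau at 46.7 ± 0.197.

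**Figure D1:**
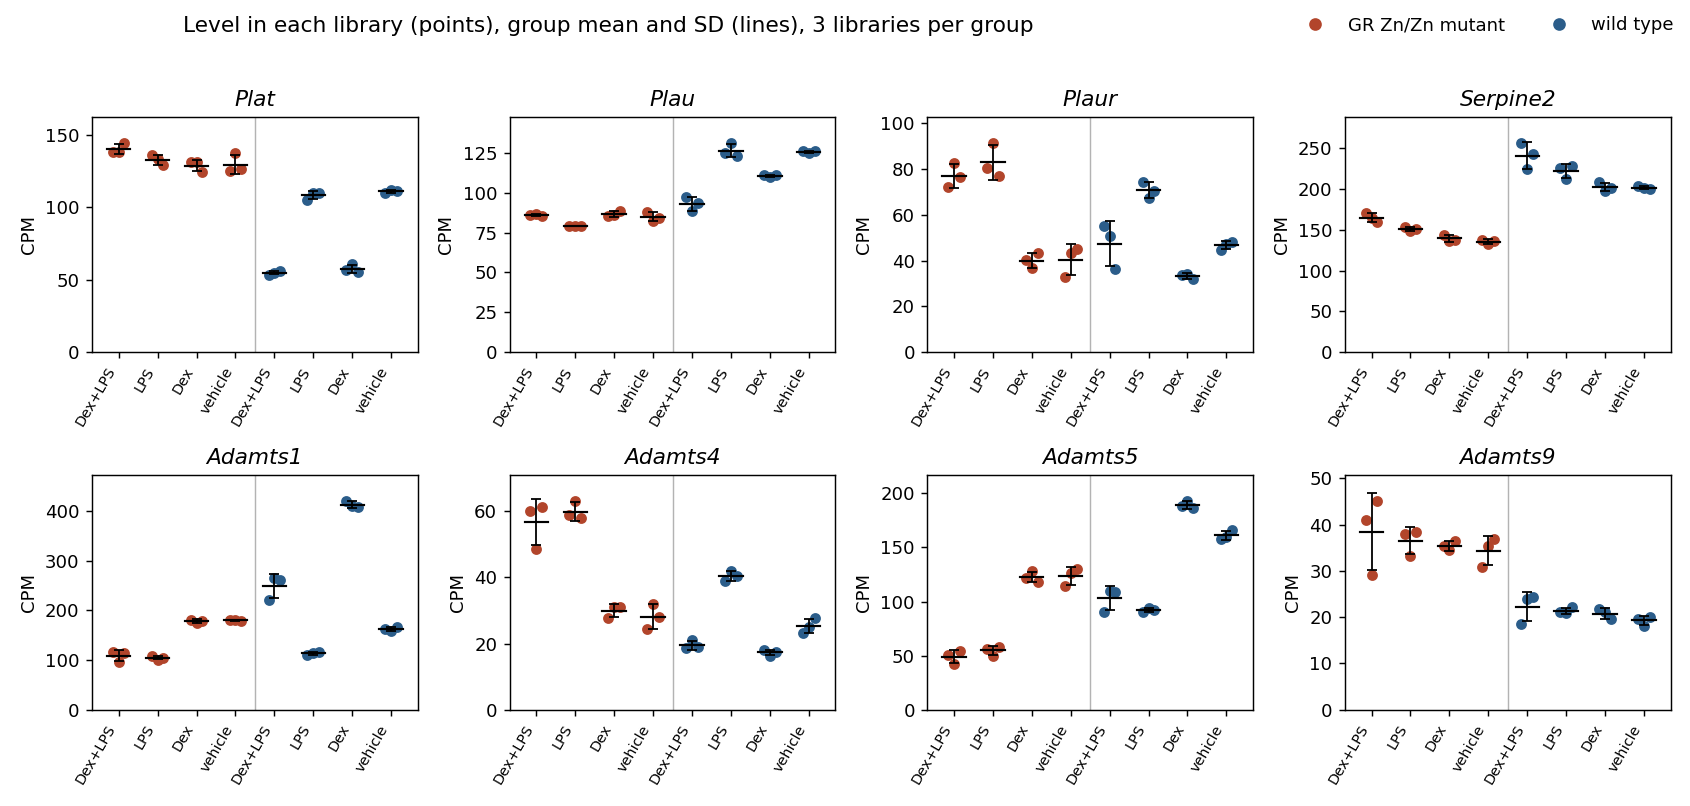
CPM of the 8 genes in each library (points) by treatment and genotype, with the group mean and SD (lines), 3 libraries per group. Plat with Dex lies at 124 to 131 CPM in mutant cells and at 55.2 to 60.6 CPM in wild-type cells, and Adamts1 with Dex at 174 to 181 CPM in mutant cells and 407 to 420 CPM in wild-type cells.

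Dex lowered both activators, the receptor and Adamts4 in wild-type cells and raised Adamts1, and no member was called in mutant cells. Calls were made with edgeR's quasi-likelihood test where the p-value, adjusted by Benjamini-Hochberg over the whole set of tested genes, was below 0.05. Against vehicle, 5 of the 8 members were called in wild-type cells, 1 higher and 4 lower, where 13.2% of all tested genes were called, 7.92% higher and 5.24% lower. In mutant cells edgeR called 0 members, with 0 at an unadjusted p below 0.05 and 0 by DESeq2, and it called 0% of all genes. Dex with LPS, set against LPS, gave the same division in wild-type cells, with 1 member higher and 4 lower, and 21% of all genes called, 10.5% higher and 10.6% lower. In mutant cells that comparison called 0 members, with 2 at an unadjusted p below 0.05 and 0 by DESeq2, and 0.00657% of all genes. The median absolute log2 change of the members in wild-type cells was 0.36 with Dex alone and 0.51 with Dex under LPS, against 0.12 and 0.16 over all tested genes. The groups compared did not overlap for 13.4% of all tested genes in mutant and 40.9% in wild-type cells with Dex alone, and for 10.2% and 32% with Dex under LPS.

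The genotype difference of the Dex effect was itself tested, and a positive value means a more positive log2 change in the mutant. It was called for 4 members with Dex alone, 3 higher and 1 lower, with a background of 6.99% of all genes, 2.6% higher and 4.4% lower. Under LPS it was called for Plat, Plau, Adamts4 and Adamts1 as well, again 3 higher and 1 lower, with a background of 10.4%, 5.36% higher and 5.03% lower. DESeq2 called this difference for 4 members with Dex alone and for 5 under LPS.

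**Figure D2:**
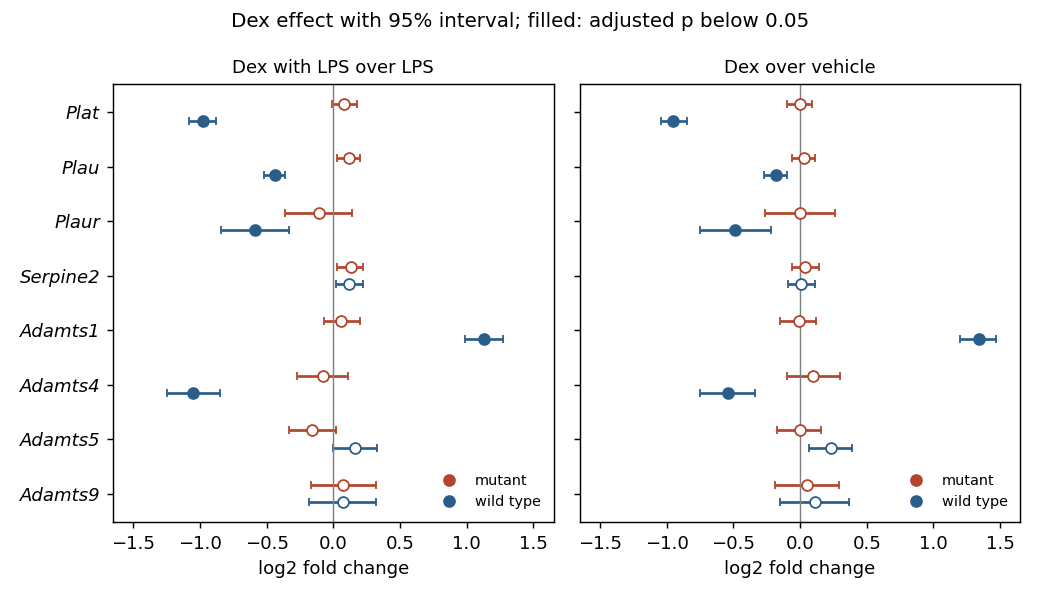
Log2 fold change of each member with Dex (points) and its 95% interval (bars), in mutant and wild-type cells, under LPS on the left and without LPS on the right. Filled points passed an adjusted p of 0.05, which 5 members did in wild-type cells in each panel and 0 in mutant cells.

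Plat, which encodes tissue-type plasminogen activator, had 131, 131 and 124 CPM with Dex and 125, 137 and 126 CPM with vehicle in mutant cells. Wild-type libraries had 56.8, 60.6 and 55.2 CPM with Dex and 110, 112 and 111 CPM with vehicle. The Dex and vehicle groups overlapped in mutant cells and lay far apart in wild-type cells. Plat fell 1.93-fold in wild-type cells (log2 -0.95 ± 0.05 SE, adjusted p = 1.21e-12), and in mutant cells the change was 0.00, with a 95% interval of -0.10 to 0.09. The genotype difference was 0.94 ± 0.06 (adjusted p = 1.46e-09).

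Under LPS the same contrast was seen for Plat, with 138, 138 and 144 CPM with Dex and LPS and 136, 133 and 129 CPM with LPS in mutant cells. Wild-type cells had 53.5, 54.9 and 55.7 CPM with Dex and LPS and 105, 110 and 110 CPM with LPS. The mutant libraries with Dex and LPS were all above those with LPS, by a small margin that was not called (log2 0.08 ± 0.05, adjusted p = 0.873), and the wild-type libraries were all below. Plat fell by 0.98 ± 0.05 on the log2 scale in wild-type cells (adjusted p = 5.46e-13), and the genotype difference was 1.06 ± 0.06 (adjusted p = 9.89e-11). LPS alone gave 0.04 ± 0.05 in mutant cells and -0.04 ± 0.05 in wild-type cells, neither called. In order of level, all 4 mutant groups stood above all 4 wild-type groups, and the wild-type Dex groups with and without LPS, at the low end, overlapped each other.

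Plau, which encodes urokinase, had 85.3, 85.8 and 88.5 CPM with Dex and 88, 82.5 and 84.3 CPM with vehicle in mutant cells. Its wild-type levels were 111, 110 and 111 CPM with Dex and 126, 125 and 126 CPM with vehicle. These groups overlapped in mutant cells and not in wild-type cells, where Plau fell by 0.18 ± 0.04 on the log2 scale (adjusted p = 0.00271). The genotype difference of 0.21 ± 0.06 passed the threshold (adjusted p = 0.026), but not without a filter on low counts (0.22, adjusted p = 0.192). It also missed the threshold when any 1 of 10 libraries was left out, at adjusted p of 0.0504 to 0.0979: each Dex library of both genotypes, the vehicle replicates 2 and 3 of the mutant, and the vehicle replicates 1 and 3 of wild type.

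Under LPS, Plau had 85.9, 86.5 and 85.4 CPM with Dex and 79.3, 79.1 and 79.2 CPM without it in mutant cells. In wild-type cells it had 97.3, 88.6 and 93.6 CPM with Dex and LPS and 125, 131 and 123 CPM with LPS. The groups did not overlap in either genotype and lay in opposite directions. The mutant change of 0.12 ± 0.04 was not called (adjusted p = 0.63), and the wild-type fall was 0.44 ± 0.04 on the log2 scale (adjusted p = 2.43e-08). The genotype difference was 0.56 ± 0.06 (adjusted p = 3.39e-07).

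Plau was the 1 member called in the difference of the wild-type Dex effect with LPS minus that without LPS, at -0.26 ± 0.06 (adjusted p = 0.02), with a background of 1.56% of all genes, 0.315% higher and 1.25% lower. That call was lost with no filter on low counts (adjusted p = 0.314) and with the wild-type libraries alone (adjusted p = 0.129). It was also lost without the Dex replicate 1 or 3, the Dex with LPS replicate 2, the LPS replicate 2 or the vehicle replicate 2 or 3 of wild type, at adjusted p of 0.0533 to 0.0798. Adamts4 had -0.51 ± 0.14 in this difference (adjusted p = 0.0773).

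Plaur, the urokinase receptor, had 40.3, 36.6 and 43.2 CPM with Dex and 32.7, 43.3 and 45.2 CPM with vehicle in mutant cells. Wild-type libraries had 33.8, 34.3 and 31.9 CPM with Dex and 44.8, 47.2 and 48.2 CPM with vehicle. Only the wild-type groups were separate, with all Dex libraries lower. Plaur fell by 0.49 ± 0.13 on the log2 scale in wild-type cells (adjusted p = 0.0112), against 0.00 in mutant cells with a 95% interval of -0.26 to 0.26. The genotype difference of 0.48 ± 0.18 was not called (adjusted p = 0.13). The lowest mutant vehicle value, 32.7 CPM, was from 1 of the 3 deeper libraries. Without those 3 the difference was 0.34 (adjusted p = 0.032), and without all 5 that stood apart it was 0.35.

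Under LPS, Plaur had 72.2, 82.7 and 76.4 CPM with Dex and 80.6, 91.3 and 76.9 CPM without it in mutant cells. Its wild-type levels were 55.2, 50.8 and 36.3 CPM with Dex and LPS and 74.4, 67.3 and 70.5 CPM with LPS. The mutant groups overlapped and the wild-type groups did not, with the lowest value from the deep wild-type replicate 3. Plaur fell by 0.59 ± 0.12 in wild-type cells on the log2 scale (adjusted p = 0.00124), and by 0.42 without that library (adjusted p = 0.0052). The genotype difference of 0.48 ± 0.17 was not called (adjusted p = 0.0879). It was called in some alternative settings, among them without the mutant LPS replicate 2 (0.58, adjusted p = 0.0452) and without the wild-type Dex with LPS replicate 1 (0.61, adjusted p = 0.0205). Without the 5 libraries that stood apart it was 0.42, with replicate 2 alone left for wild-type Dex with LPS. Without the wild-type Dex with LPS replicate 3 it was smaller, at 0.31, and not called (adjusted p = 0.164).

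Serpine2, the inhibitor, had 144, 136 and 138 CPM with Dex and 138, 132 and 136 CPM with vehicle in mutant cells. In wild-type cells it had 208, 198 and 201 CPM with Dex and 204, 201 and 200 CPM with vehicle. Both pairs of groups overlapped, and the log2 changes were 0.04 (95% interval -0.06 to 0.14) in mutant cells and 0.01 (-0.09 to 0.11) in wild-type cells. Under LPS, Serpine2 had 170, 165 and 160 CPM with Dex and 154, 149 and 151 CPM without it in mutant cells, which did not overlap. Wild-type cells had 256, 224 and 243 CPM with Dex and LPS and 226, 212 and 228 CPM with LPS, which did. The changes of 0.13 ± 0.05 in mutant cells (adjusted p = 0.713) and 0.12 ± 0.05 in wild-type cells (adjusted p = 0.0742) were not called. The wild-type value was called without the Dex with LPS replicate 2 (0.17, adjusted p = 0.0131). It was 0.00 without the 5 libraries that stood apart, where replicate 2 alone remained for Dex with LPS.

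Adamts1, whose product cleaves versican and aggrecan, was the member that rose with Dex. It had 181, 174 and 179 CPM with Dex and 181, 180 and 178 CPM with vehicle in mutant cells, against 420, 409 and 407 CPM with Dex and 163, 159 and 167 CPM with vehicle in wild-type cells. The mutant groups overlapped, and each wild-type Dex library was above every other library. The rise in wild-type cells was 2.52-fold (log2 1.34 ± 0.07, adjusted p = 1.13e-12). The mutant change was -0.01 with a 95% interval of -0.15 to 0.12, and the genotype difference was -1.35 ± 0.09 (adjusted p = 1.27e-09).

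Under LPS, Adamts1 had 117, 95.5 and 115 CPM with Dex and 108, 101 and 105 CPM without it in mutant cells. Wild-type cells had 221, 266 and 260 CPM with Dex and LPS and 111, 114 and 116 CPM with LPS. The mutant groups overlapped, while the wild-type libraries with Dex were all higher, by 2.19-fold (log2 1.13 ± 0.07, adjusted p = 1.2e-11). The genotype difference was -1.07 ± 0.09 (adjusted p = 2.21e-08).

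Adamts4, or aggrecanase-1, had 27.6, 31 and 31.1 CPM with Dex and 24.3, 32 and 28.1 CPM with vehicle in mutant cells. Wild-type libraries had 18, 16.4 and 17.6 CPM with Dex and 23.2, 25.1 and 27.6 CPM with vehicle. The mutant groups overlapped and the wild-type groups did not. Adamts4 fell by 0.54 ± 0.10 on the log2 scale in wild-type cells (adjusted p = 0.000422), and the genotype difference was 0.64 ± 0.14 (adjusted p = 0.00382). Under LPS it had 60.1, 48.7 and 61.4 CPM with Dex and 58.8, 63.1 and 57.8 CPM without it in mutant cells. Wild-type cells had 18.6, 21 and 18.9 CPM with Dex and LPS and 38.9, 41.9 and 40.5 CPM with LPS. All wild-type libraries with Dex and LPS were also below the wild-type vehicle libraries. The fall under LPS was 2.07-fold in wild-type cells (log2 -1.05 ± 0.10, adjusted p = 2.19e-08), and the genotype difference was 0.97 ± 0.13 (adjusted p = 1.41e-05).

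Adamts5, or aggrecanase-2, had 122, 128 and 118 CPM with Dex and 114, 126 and 130 CPM with vehicle in mutant cells. Its wild-type levels were 188, 193 and 186 CPM with Dex and 158, 160 and 166 CPM with vehicle. The mutant groups overlapped, and all wild-type Dex libraries were above the vehicle ones. The wild-type change of 0.23 ± 0.08 narrowly missed the threshold (adjusted p = 0.0597). The authors' deposited table gives 0.22 with an adjusted p of 0.0482, and leaving out the 5 libraries that stood apart gave 0.22. The genotype difference with Dex alone was -0.23 ± 0.11 (adjusted p = 0.299), and -0.28 without those 5 libraries. Under LPS, Adamts5 had 50.9, 42.1 and 54.3 CPM with Dex and 56.4, 50.1 and 58.2 CPM without it in mutant cells, against 90.2, 110 and 109 CPM with Dex and 90.7, 94 and 92.1 CPM without it in wild-type cells. Both pairs of groups overlapped. The wild-type change of 0.16 ± 0.08 was not called (adjusted p = 0.16), and without the wild-type Dex with LPS replicate 1, its lowest library, it was 0.25 (adjusted p = 0.0213). The genotype difference under LPS was -0.32 ± 0.12 (adjusted p = 0.0892), and -0.41 without that library (adjusted p = 0.011).

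Adamts9, which is expressed in vascular and connective tissue and cleaves versican, was not called with Dex. It had 35.4, 34.4 and 36.5 CPM with Dex and 30.8, 35.4 and 36.9 CPM with vehicle in mutant cells, against 21.7, 21.1 and 19.5 CPM with Dex and 19.7, 18.1 and 20.1 CPM with vehicle in wild-type cells. Both pairs of groups overlapped. Its log2 change with Dex was 0.05 (95% interval -0.19 to 0.29) in mutant cells and 0.11 (-0.15 to 0.37) in wild-type cells. Under LPS it was 0.07 (-0.17 to 0.32) in mutant cells and 0.07 (-0.18 to 0.32) in wild-type cells.

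LPS, set against vehicle, raised Plaur, Serpine2 and Adamts4 and lowered Adamts1 and Adamts5 in both genotypes, while Plat, Plau and Adamts9 were not called. This made 5 members called in mutant cells, 3 higher and 2 lower, with a background of 36.7% of all genes, 19% higher and 17.7% lower. In wild-type cells 5 were called, 3 higher and 2 lower, with a background of 26.4%, 14% higher and 12.4% lower. Both comparisons use vehicle groups that the Dex comparisons share.

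Plaur was at 76.9 to 91.3 CPM with LPS and at 32.7 to 45.2 CPM with vehicle in mutant cells, and at 67.3 to 74.4 CPM with LPS and 44.8 to 48.2 CPM with vehicle in wild-type cells. It rose by 1.05 ± 0.12 on the log2 scale in mutant cells (adjusted p = 5.09e-07) and by 0.60 ± 0.12 in wild-type cells (adjusted p = 0.000828). Adamts4 was at 57.8 to 63.1 CPM with LPS and 24.3 to 32 CPM with vehicle in mutant cells, and at 38.9 to 41.9 CPM with LPS and 23.2 to 27.6 CPM with vehicle in wild-type cells. The LPS and vehicle groups of both genes did not overlap in either genotype, as was so for 48.9% of all tested genes in mutant and 52.4% in wild-type cells. Adamts4 rose 2.15-fold in mutant cells (log2 1.10 ± 0.09, adjusted p = 2.3e-09) and 1.6-fold in wild-type cells (log2 0.67 ± 0.10, adjusted p = 9.25e-06).

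Adamts5 was at 50.1 to 58.2 CPM with LPS and 114 to 130 CPM with vehicle in mutant cells, and at 90.7 to 94 CPM with LPS and 158 to 166 CPM with vehicle in wild-type cells. It fell 2.25-fold in mutant cells (log2 -1.17 ± 0.08, adjusted p = 7.73e-11) and 1.75-fold in wild-type cells (log2 -0.81 ± 0.08, adjusted p = 4.99e-08), and these groups did not overlap either. Adamts1, its neighbour on chromosome 16, fell by 0.78 ± 0.07 on the log2 scale in mutant cells (adjusted p = 1.88e-09) and by 0.52 ± 0.07 in wild-type cells (adjusted p = 1.73e-06). The aggrecanases Adamts4 and Adamts5 thus moved in opposite directions with LPS in both genotypes.

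Serpine2 rose by 0.16 ± 0.05 in mutant cells (adjusted p = 0.0104) and by 0.14 ± 0.05 in wild-type cells (adjusted p = 0.031), on the log2 scale. The call was lost in mutant cells without the LPS replicate 1 (adjusted p = 0.0783) or the vehicle replicate 2 (0.0854) or 3 (0.0541). In wild-type cells it was lost without the LPS replicate 1 (adjusted p = 0.113) or 3 (0.129) or the vehicle replicate 1 (0.0577), 2 (0.0764) or 3 (0.1). With no filter on low counts neither was called (adjusted p = 0.0748 in mutant and 0.12 in wild-type cells). Plau changed by -0.10 ± 0.04 in mutant cells (adjusted p = 0.0554). DESeq2 called it, at -0.12 (adjusted p = 0.0179). It was also called by edgeR with RLE scaling (-0.11, adjusted p = 0.0391) and with unstranded counts (-0.12, adjusted p = 0.0412). Without the mutant vehicle replicate 2, edgeR called it at -0.14 (adjusted p = 0.0255).

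The genotype difference of the LPS effect was called by edgeR for 0 members, with 4 at an unadjusted p below 0.05 and 0 by DESeq2, and for 0.539% of all genes, 0.348% higher and 0.191% lower. The 4 were Plaur (0.45 ± 0.17, adjusted p = 0.409), Adamts4 (0.43 ± 0.13, 0.246), Adamts5 (-0.36 ± 0.11, 0.248) and Adamts1 (-0.26 ± 0.09, 0.34). Plaur's value was 0.30 without the mutant vehicle replicate 1, and 0.23 without the 3 deeper libraries or the 5 that stood apart. That of Adamts4 was 0.31 without the same vehicle replicate, and 0.28 without the 3 or the 5. Fitted on the compared libraries alone, Adamts1 and Adamts5 were called, at -0.28 (adjusted p = 0.0224) and -0.38 (adjusted p = 0.0218).

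**Figure D3:**
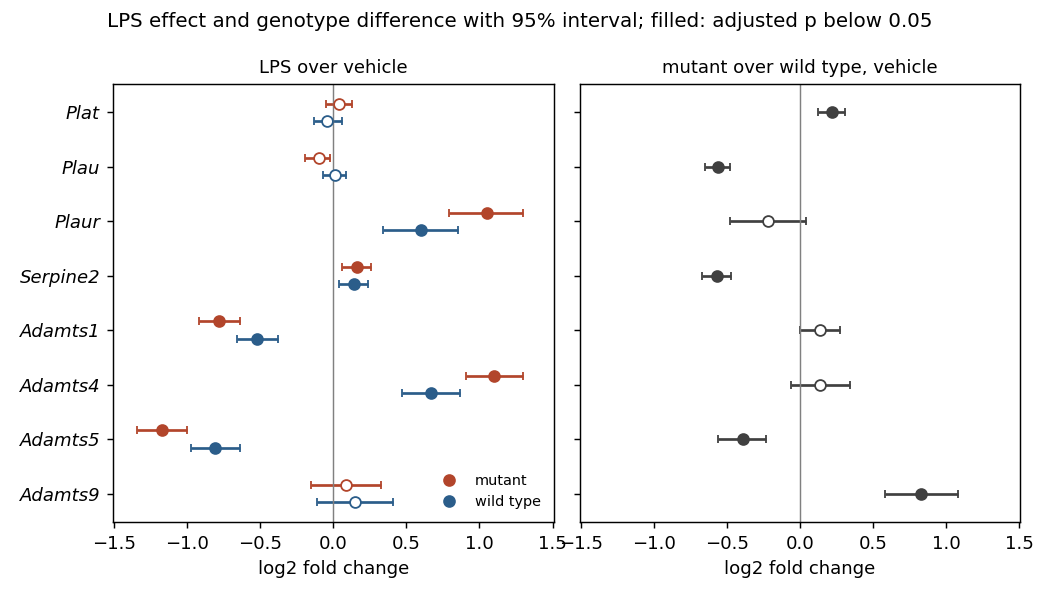
Log2 fold change of each member (points) with its 95% interval (bars): LPS over vehicle in mutant and wild-type cells on the left, and mutant over wild type in vehicle on the right. Filled points passed an adjusted p of 0.05. Plaur and Adamts4 lie to the right and Adamts1 and Adamts5 to the left in both genotypes with LPS, and Adamts9 has the most positive genotype difference, at 0.83.

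Mutant and wild-type cells differed before any treatment. In vehicle, 5 members were called, 2 higher and 3 lower in mutant cells, with a background of 18.8% of all genes, 8.69% higher and 10.1% lower. Adamts9 had 30.8, 35.4 and 36.9 CPM in mutant cells and 19.7, 18.1 and 20.1 CPM in wild-type cells, and it was 1.77-fold higher in mutant cells (log2 0.83 ± 0.12, adjusted p = 2.04e-05). Plat was higher by a log2 of 0.22 ± 0.05 (adjusted p = 0.0012). Lower in mutant cells were Serpine2 (-0.57 ± 0.05, adjusted p = 5.76e-09), Plau (-0.56 ± 0.04, adjusted p = 7.37e-10) and Adamts5 (-0.39 ± 0.08, adjusted p = 0.000861). The vehicle groups of these 5 and of Adamts1 did not overlap, as was so for 36.7% of all tested genes.

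For Adamts9 all 12 mutant libraries, at 29.1 to 45.1 CPM, lay above all 12 wild-type libraries, at 18.1 to 24.3 CPM. Serpine2 was separated the other way in all treatments, at 132 to 170 CPM in mutant cells and 198 to 256 CPM in wild-type cells. Plaur (-0.22 ± 0.12, adjusted p = 0.264), Adamts1 (0.14 ± 0.06, 0.159) and Adamts4 (0.14 ± 0.10, 0.378) were not called in vehicle. Plaur was at -0.08 without the mutant vehicle replicate 1, and likewise without the 3 deeper libraries or the 5. Without the 5 libraries that stood apart, Adamts1 was at 0.13 and Adamts4 at 0.24.

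The cultures of the 2 genotypes also differed in markers of other cells, beside each of these genotype values. Summed over 10 macrophage markers, mutant libraries had 165 to 208 CPM and wild-type libraries 68.3 to 87.5 CPM, and 9 of the 10 were called higher in mutant vehicle cells. Summed cartilage markers had 73.7 to 111 CPM in mutant libraries and 200 to 324 CPM in wild-type libraries, with 4 of 9 tested markers lower in vehicle and 0 higher. Of 10 fibroblast markers 7 were higher in mutant vehicle cells, and of 7 tested endothelial markers 2 were lower. The nerve and glia markers had 256 to 298 CPM in mutant and 301 to 318 CPM in wild-type vehicle libraries, with 2 of 8 higher and 3 lower, and 0 of 9 liver markers were called. The liver sum was uneven among replicates, at 183, 23.6 and 27.7 CPM in mutant vehicle libraries. It was 1.07, 46.2 and 205 CPM in wild-type Dex with LPS libraries. The 183 and 205 CPM were from deeper libraries, and the other deeper library, mutant LPS replicate 2, had 124 CPM. The wild-type vehicle replicate 3, not a deeper library, had 150 CPM. With Dex in wild-type cells, the macrophage sum was 68.3 to 78.1 CPM with Dex and 85.7 to 87.5 CPM with vehicle, with 1 marker higher and 3 lower, and the nerve and glia sum was 426 to 442 CPM with Dex and 301 to 318 CPM with vehicle. With LPS, 3 macrophage markers were higher and 4 lower in mutant cells, and 3 were higher and 3 lower in wild-type cells. The macrophage sum was 165 to 177 CPM with LPS and 196 to 208 CPM with vehicle in mutant cells, and 79.3 to 81.4 CPM with LPS and 85.7 to 87.5 CPM with vehicle in wild-type cells. The endothelial sum was 10.2 to 10.7 CPM with LPS and 13.9 to 16.7 CPM with vehicle in mutant cells, with 2 markers lower, and 24.3 to 25.5 CPM with LPS and 30.6 to 32.8 CPM with vehicle in wild-type cells, with 1 higher and 2 lower. Dex under LPS called 0 markers of any list in mutant cells. In wild-type cells the nerve and glia sum was 367 to 420 CPM with Dex and LPS and 297 to 302 CPM with LPS, with 3 markers higher, and the cartilage sum was 200 to 273 CPM with Dex and LPS and 291 to 324 CPM with LPS, with 1 marker higher and 0 lower. The part of these shifts in the members' values was not tested.

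Other genes of the plasminogen system were counted from a list of 27, of which 23 were tested. In wild-type cells with Dex, 5 were higher and 4 lower, where 13.2% of all tested genes were called, with a median log2 change of -0.14 over the 23 and 0.00 over all tested genes. In mutant cells 0 were called by edgeR, with 8 at an unadjusted p below 0.05 and 0 by DESeq2. Thrombomodulin (Thbd), a cell-surface thrombin receptor, had 81.7 ± 2.17 CPM with Dex and 81.3 ± 8.38 CPM with vehicle in mutant cells, against 35.4 ± 1.86 and 97.2 ± 1.84 CPM in wild-type cells (SD, n = 3 each). It fell by 1.45 ± 0.07 on the log2 scale in wild-type cells (adjusted p = 3.65e-13). Hgf, a growth factor related to plasminogen in structure, fell by 1.24 ± 0.15, and the protease-activated receptor gene F2rl1 fell by 0.77 ± 0.07. Tissue factor (F3) rose by 0.68 ± 0.07.

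LPS raised 6 and lowered 3 of the 23 in mutant cells, and raised 5 and lowered 5 in wild-type cells, where 36.7% and 26.4% of all tested genes were called, so that the count in mutant cells was near the background. Serpinb2, an inhibitor of urokinase, had 11.5 ± 0.746 CPM with LPS and 0.797 ± 0.0744 CPM with vehicle in mutant cells, against 7.44 ± 0.495 and 1.05 ± 0.099 CPM in wild-type cells. Its rise was 3.71 ± 0.15 in mutant and 2.73 ± 0.16 in wild-type cells on the log2 scale. With Dex under LPS, 5 of the 23 were higher and 6 lower in wild-type cells, beside 21% of all tested genes called, among them Serpinb2 (-1.21 ± 0.13), Thbd (-1.50 ± 0.07) and Hgf (-1.22 ± 0.14). In mutant cells 0 were called by edgeR, with 3 at an unadjusted p below 0.05 and 0 by DESeq2.

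Of 24 tested genes among other ADAMTS proteases and inhibitors, 4 were higher and 4 lower with Dex in wild-type cells, beside 13.2% of all tested genes called, and the list's median log2 change was -0.07. Timp3, an inhibitor of aggrecanases, had 801 ± 17.3 CPM with Dex and 800 ± 21.3 CPM with vehicle in mutant cells, against 335 ± 10.4 and 533 ± 2.62 CPM in wild-type cells. It fell there by 0.67 ± 0.07 with Dex alone (adjusted p = 1.36e-07) and by 0.95 ± 0.07 with Dex under LPS (adjusted p = 3.36e-10). The cell-surface proteoglycan gene Sdc4 rose by 1.03 ± 0.05 with Dex in wild-type cells. It also rose with LPS, by 1.15 ± 0.05 in mutant and 1.10 ± 0.05 in wild-type cells. With LPS, 7 of the 24 were higher and 7 lower in mutant cells, beside 36.7% of all tested genes called. In wild-type cells 5 were higher and 6 lower with LPS, beside 26.4%. In mutant cells edgeR called 0 of the 24 with Dex and 0 with Dex under LPS, with 2 and 1 at an unadjusted p below 0.05 and 0 by DESeq2.

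Among 20 tested genes of proteoglycans and the hyaluronan matrix, on which aggrecanases act, 2 were higher and 6 lower with Dex in wild-type cells, and 0 were higher and 7 lower with Dex under LPS, beside 13.2% and 21% of all tested genes called. The list's median log2 change was 0.07 with Dex alone and -0.22 with Dex under LPS. The hyaluronan synthase gene Has2 had 77 ± 2.01 CPM with Dex and 89.5 ± 5.72 CPM with vehicle in mutant cells, against 34 ± 0.686 and 86.9 ± 2.58 CPM in wild-type cells. It fell by 1.35 ± 0.09 in wild-type cells (adjusted p = 6.5e-11). Has1 rose with LPS by 2.30 ± 0.22 in mutant and 2.38 ± 0.26 in wild-type cells, and fell by 2.50 ± 0.25 with Dex under LPS in wild-type cells. The hyaluronan receptor gene Cd44 rose with LPS by 0.93 ± 0.06 in mutant and 0.99 ± 0.06 in wild-type cells. With LPS, 7 of the 20 were higher and 1 lower in mutant cells, and 5 were higher and 1 lower in wild-type cells. Over both directions these counts were near the shares of all tested genes called, 36.7% in mutant and 26.4% in wild-type cells. In mutant cells edgeR called 0 of the 20 with Dex and 0 with Dex under LPS, with 2 and 3 at an unadjusted p below 0.05 and 0 by DESeq2.

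**Figure D4:**
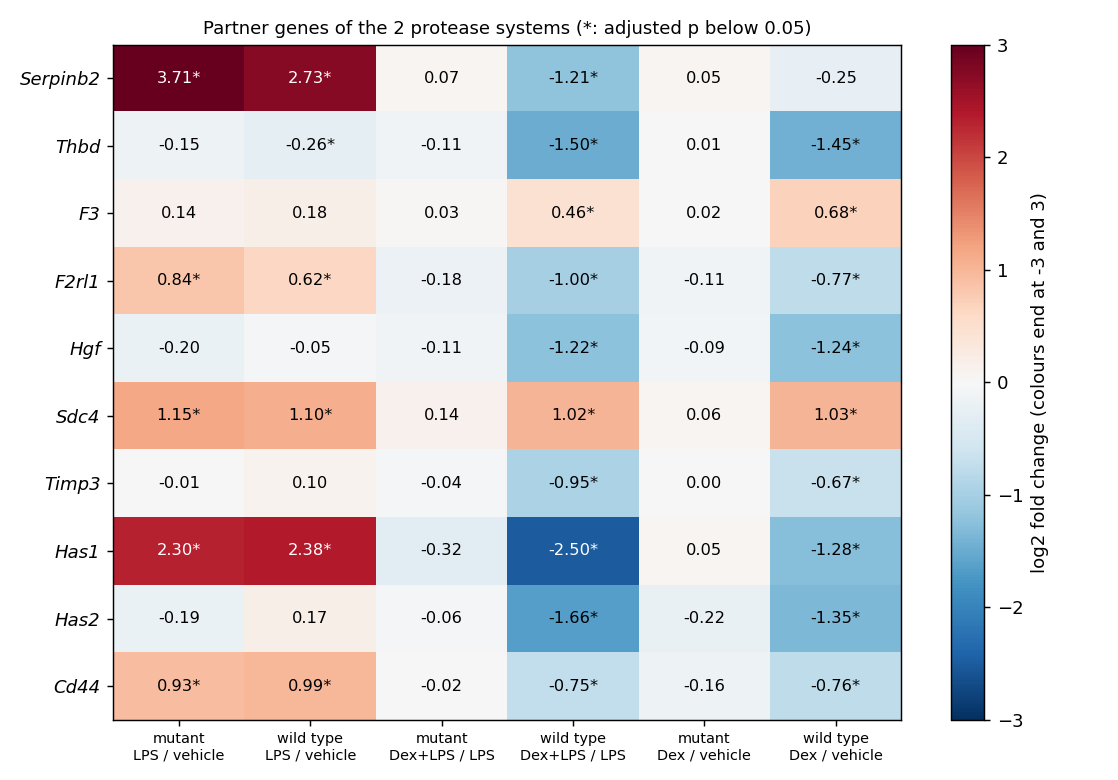
Log2 fold change (colour and number) of 10 partner genes of both protease systems in 6 comparisons, with an asterisk where the adjusted p was below 0.05. The mutant columns for Dex hold no asterisk. With Dex over vehicle, Thbd is at 0.01 in mutant cells and at -1.45 in wild-type cells.

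Across all 24 libraries, as a description of points that share groups and treatments, Adamts4 ran with Plaur (Pearson r = 0.86 on log2 CPM) and against Adamts1 (-0.9) and Adamts5 (-0.86). Plau and Serpine2 ran together (0.7), and both ran against Adamts9 (-0.85 for Plau and -0.83 for Serpine2). Plat and Plau, the activators, had an r of -0.33. The genes most like each member were Timp3 (0.968), Socs5 and Aldh1a3 for Plat, Ano1 (0.947), Mmd and Serpinb6b for Plau, and Phlda1 (0.971), Phldb1 and Dlg4 for Plaur. For Serpine2 they were Rspo3 (0.986), Ctsh and Ctsl. For the aggrecanases they were Ablim1 (0.981), Nrbp2 and Phka2 for Adamts1, Abcg1 (0.974), Brd2 and Sh2b3 for Adamts4, 2900026A02Rik (0.991), Eya4 and Sertad4 for Adamts5, and Lama4 (0.959), Slit3 and Col6a3 for Adamts9.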

How the data were processed

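Counts per gene, as deposited by the authors, were written by STAR. Versions 2.4.2 and 2.4.2a of that aligner stand in the submitters' processing notes, beside FastQC, DESeq, DESeq2 and the mm10 build. A stranded mRNA kit was used on 500 ng of RNA, per the labels' protocols, so the counts of the reverse strand were taken. Rows without a gene name were left out of library sizes and the fit. Reads outside any feature made up 3.1 to 4.72%, multimapping reads 3.74 to 5.79%, unmapped reads 2.92 to 5.58% and ambiguous reads 1.18 to 1.41%. The authors' deposited tables give a log2 fold change and an adjusted p-value for 12588 genes, and the other 96 per-sample columns were left unused.

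All 24 libraries entered 1 quasi-likelihood fit in edgeR 4.0.16 (R 4.3.3, limma 3.58.1), with TMM scaling, the default expression filter by group, 1 coefficient per group, robust estimation and a prior count of 2. P-values were adjusted by Benjamini-Hochberg over 15221 genes, in 11 comparisons, and intervals are 95%. DESeq2 1.42.0 was an alternative. A count of 0 would allow up to 3 reads, or 0.053 to 0.163 CPM per library, which covers counting error only. GENCODE vM21 held 45143 of the identifiers. The scripts were tested on simulated data. All 8 members are named in every comparison, and from each of 3 pathway lists at most the 4 called genes with the largest change, of which some are described. For each member the 3 genes with the highest correlation are named. Members and lists were chosen with earlier results of these data known.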

Additional observations from a re-analysis of the deposited data

Results flagged for a closer look

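The response to Dex differed between the genotypes by a test of the difference itself for 4 members. In Dex against vehicle, the mutant minus wild-type difference of log2 changes was 0.94 for Plat, 0.64 for Adamts4, 0.21 for Plau and -1.35 for Adamts1. The Plau value there was not called without a filter on low counts (adjusted p = 0.192) or in several fits with a library left out. Under LPS it was 1.06 for Plat, 0.97 for Adamts4, 0.56 for Plau and -1.07 for Adamts1.

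In wild-type cells the Dex effect on Plau with LPS differed from that without LPS, by -0.26 on the log2 scale. That call was lost without a filter on low counts (adjusted p = 0.314), with the wild-type libraries alone (adjusted p = 0.129) and in several fits with a library left out.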

How the results depend on the processing

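No called value of a member changed sign under any alternative, and of 704 member values under settings other than leaving out 1 library, 13 that were called in neither fit did. The calls of Plat, Adamts1 and Adamts4 with Dex in wild-type cells, and their genotype differences, held under every alternative run. The number of members called in the difference of the wild-type Dex effect with and without LPS was 1. It was 2 with DESeq2, 0 with no filter on low counts, and 0 to 1 when 1 library was left out. For the genotype difference of the LPS effect the number was 0, and it was 2 with only the compared libraries. The cause was not tested.

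Same-numbered samples did not deviate together: of 84 pairs, 17 had a correlation over 0.1, in a range of -0.58 to 0.35. With the replicate number as a block, 5 members were called with Dex in wild-type cells and 6 with Dex under LPS, where Serpine2 (0.12, adjusted p = 0.0429) was added. No other call of a member changed with the block.

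Counts over all genes moved by over 1.5 times in some settings. Counts without the 5 libraries that stood apart are left out, as that setting keeps only replicate 2 of the wild-type Dex with LPS group. For Dex in wild-type cells 2003 genes were called, against 4659 with only the compared libraries. For Dex under LPS in wild-type cells 3198 were called, against 1544 with only the compared libraries and 5052 without the 3 deeper ones. For LPS in wild-type cells the numbers were 4020 and 6847 (compared only). For the genotype differences they were, in the same order, 1064 and 1659 with Dex, 82 and 146 with LPS (140 by DESeq2), and 1581 and 1042 with Dex under LPS. In mutant cells Dex called 0 genes, against 3 by DESeq2 and 1 without the 3. Dex under LPS called 1, against 26 by DESeq2, 12 with the block, 6 unfiltered, and 0 with only the compared libraries or without the 3. The difference of the wild-type Dex effect with and without LPS called 238, against 387 without the 3. With 1 library left out, the genotype difference of the LPS effect called 34 to 79 genes and Dex under LPS in mutant cells 0 to 27.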
